A study of Mus musculus with 10 samples.

Results

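The comparison described here set the balanced diet (BLD, n-3 to n-6 ratio 1:1) against the standard laboratory diet (STD, ratio 1:6) in the methylated DNA of the mouse left hemibrain. It comprised 6 of the 10 arrays of the study, 3 of BLD and 3 of STD. Replicate numbers were given here in the order of the deposited samples and are not in the labels. The other 4 arrays came from a diet enriched in n-3 fatty acids (ERD, ratio 7:1) and were used only to rank regions and as a further set of values. All mice were male C57BL/6j, an inbred laboratory strain, began their diet when 3 weeks old and were fed it for 24 weeks. Per the study's design text, the calories of BLD and ERD were matched to those of STD. Whether each array was a separate animal is not stated, and p-values then measure only the spread between these samples.

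Members of the comparison were chosen by a filter on signal, which includes the Cy5 channel of the ratio itself. A probe was used where its spot was well above background in both colours on all 6 arrays, and such a probe is called detected below. This held for 57093 of 88737 probes, or 64.3%. Probes whose starts lay at most 500 bp apart formed a cluster, and 10025 of 13835 clusters of 3 or more probes kept at least 3 detected probes. These 10025 regions had a median of 4 detected probes and a median length of 750 bp. Positions are on mouse build mm9.

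CpG islands are stretches of DNA rich in the dinucleotide CpG that often lie at promoters, and most of them are unmethylated in adult tissue. Methylated islands are known from imprinted loci and genes silenced in a lineage. The n-3 and n-6 polyunsaturated fatty acids cannot be made from scratch by mammals and are built into the membranes of brain cells, where the diet sets part of their ratio. The assay was methylated DNA immunoprecipitation on a microarray: DNA pulled down with an antibody against methylated cytosine carried Cy5, and the input DNA of the same sample carried Cy3. The log2 ratio of Cy5 over Cy3, centred on each array's median, is thus a relative level, where 0 is the median probe of that array. A hemibrain holds neurons, glia and vessel cells together, so a lower level in all cells and a shift in the mixture of cells cannot be told apart. No gene is named, because probes were known by position only, so that cell types could not be checked by their marker genes either.

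The arrays differed in strength. Between 88.0% and 90.5% of probes were well above background in both colours in BLD, against 76.4% to 89.2% in STD. The median Cy5 signal was 2.58 to 6.27 times its local background in BLD and 2.63 to 10.9 times in STD, and the highest values were those of BLD replicate 3 and STD replicate 1, which share a slide. BLD replicates 1 and 2 shared another slide, and so did STD replicates 2 and 3. Across the 10025 regions, the mean r between 2 arrays was 0.764 within BLD (3 pairs), 0.521 within STD (3 pairs) and 0.571 between the diets (9 pairs). These are descriptions over regions that share probes, dyes and base composition.

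The contrast between high and low islands was wider in BLD on average, but the arrays of the diets overlapped. The interquartile range of log2 ratios over the regions was 0.45, 0.37 and 0.22 in BLD replicates 1 to 3, against 0.29, 0.29 and 0.18 in STD replicates 1 to 3. BLD replicate 3 lay below STD replicates 1 and 2, while the other BLD arrays lay above every STD array. The means were 0.35 ± 0.12 in BLD and 0.25 ± 0.06 in STD (SD, n = 3 each), a difference of 0.09. The exact two-sided permutation p was 0.3 (0.4 adjusted over the 8 array measures tested), where 3 arrays against 3 cannot go below 0.1. Without BLD replicate 3 the difference was 0.15 and without BLD replicate 1 it was 0.04. On the shared slide it was -0.07.

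**Figure D1:**
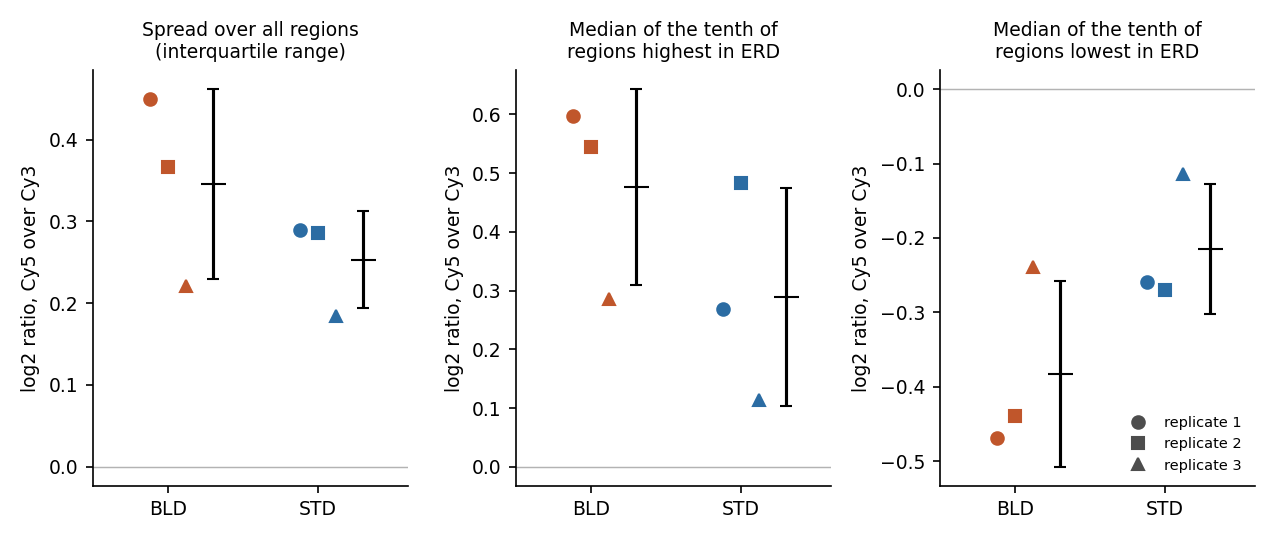
Values of each BLD array (left) and STD array (right) for the interquartile range over 10025 regions, the median of the 10% of regions highest in ERD and the median of the 10% lowest in ERD. The vertical axes are log2 ratios, and bars are the mean ± SD of 3 arrays. BLD replicate 3 (triangle) lies among the STD arrays in all 3 panels.

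Ranking the regions by the 4 ERD arrays, which belong to neither diet of the comparison, gave the same picture from both ends of the scale. In the 10% of regions highest in ERD (1003 regions), array medians were 0.60, 0.54 and 0.29 in BLD, against 0.27, 0.48 and 0.11 in STD. In the 10% lowest in ERD (1002 regions), they were -0.47, -0.44 and -0.24 in BLD, against -0.26, -0.27 and -0.11 in STD. BLD was thus more extreme on average at both ends, with 1 BLD array inside the STD range each time. The differences were 0.19 at the high end (exact permutation p = 0.2, adjusted 0.4) and -0.17 at the low end (exact permutation p = 0.3, adjusted 0.4). On the shared slide they were 0.016 and 0.021.

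**Figure D2:**
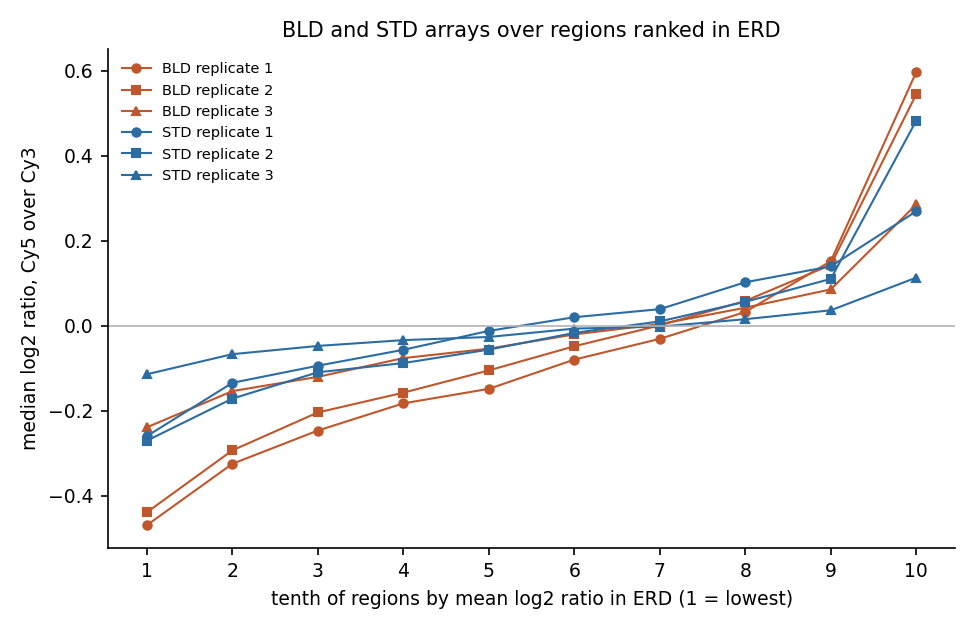
Median log2 ratio of each BLD and STD array in 10 classes of regions, ordered on the horizontal axis from the lowest to the highest mean level in ERD. BLD replicates 1 and 2 run below the STD arrays in the low classes and above them in the highest class, and BLD replicate 3 lies within the STD range in the lowest and the highest class.

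Between the ends, the difference followed the ERD level step by step. The median difference of BLD minus STD was -0.17 in the lowest class, -0.07 in the fifth and 0.17 in the highest. The share of regions that were higher in BLD was 16.8% in the lowest class, 30.8% in the fifth, 49.1% in the eighth and 80.6% in the highest. At an unadjusted limma p under 0.05, 190 of the 1003 regions highest in ERD were higher in BLD and 7 were lower. Among the 1002 lowest in ERD, 9 were higher and 248 lower. Over all regions, 3.74% were higher and 9.48% lower at that p. The pair of arrays on the shared slide did not show these steps: its median difference was 0.027 in the lowest class, -0.04 in the fifth, -0.05 in the eighth and 0.028 in the highest.

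No region passed the adjusted threshold of 0.05 when BLD was compared with STD region by region in limma. The count was 0 of 10025 (0%), with a lowest adjusted p of 0.368, and an unadjusted p under 0.05 was found for 1325 regions (13.2%), 375 with BLD higher and 950 with BLD lower. The 3 arrays of BLD did not overlap the 3 of STD in 1694 regions (16.9%), with BLD higher in 454 (4.53%) and lower in 1240 (12.4%). BLD was the higher diet in 39.2% of regions, and the median region differed by -0.05. Centring sets the median probe of each array to 0, so the total amount of methylation is outside what these ratios can show.

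The count of 0 changed when BLD replicate 3 was left out. Without it 234 of 10025 regions passed, 67 higher and 167 lower in BLD, and without any of the other 5 arrays none did. No slide held both diets once BLD replicate 3 was left out, so diet and slide cannot be told apart in that fit. Array weights, which gave BLD replicate 2 a weight of 4.40 and the other arrays 0.497 to 1.38, passed 714 of 10025 regions, 217 higher and 497 lower. The sets shared 225 regions, which is 96.2% of those called without BLD replicate 3 and 31.5% of those called with weights. Both fits use the same arrays but for BLD replicate 3, so this overlap is no independent result.

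The 20 regions named here are the 10 higher and the 10 lower in BLD with the lowest p, among regions whose direction held without any single array. All had a limma adjusted p of 0.368. In each of the 20 every BLD array lay on 1 side of every STD array, which the choice by p favours. Regions higher in BLD lay near the array median in STD, at -0.23 to 0.19, and at 0.23 to 0.94 in BLD. Regions lower in BLD lay at -0.81 to -0.49 in BLD and at -0.32 to 0.15 in STD.

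**Figure D3:**
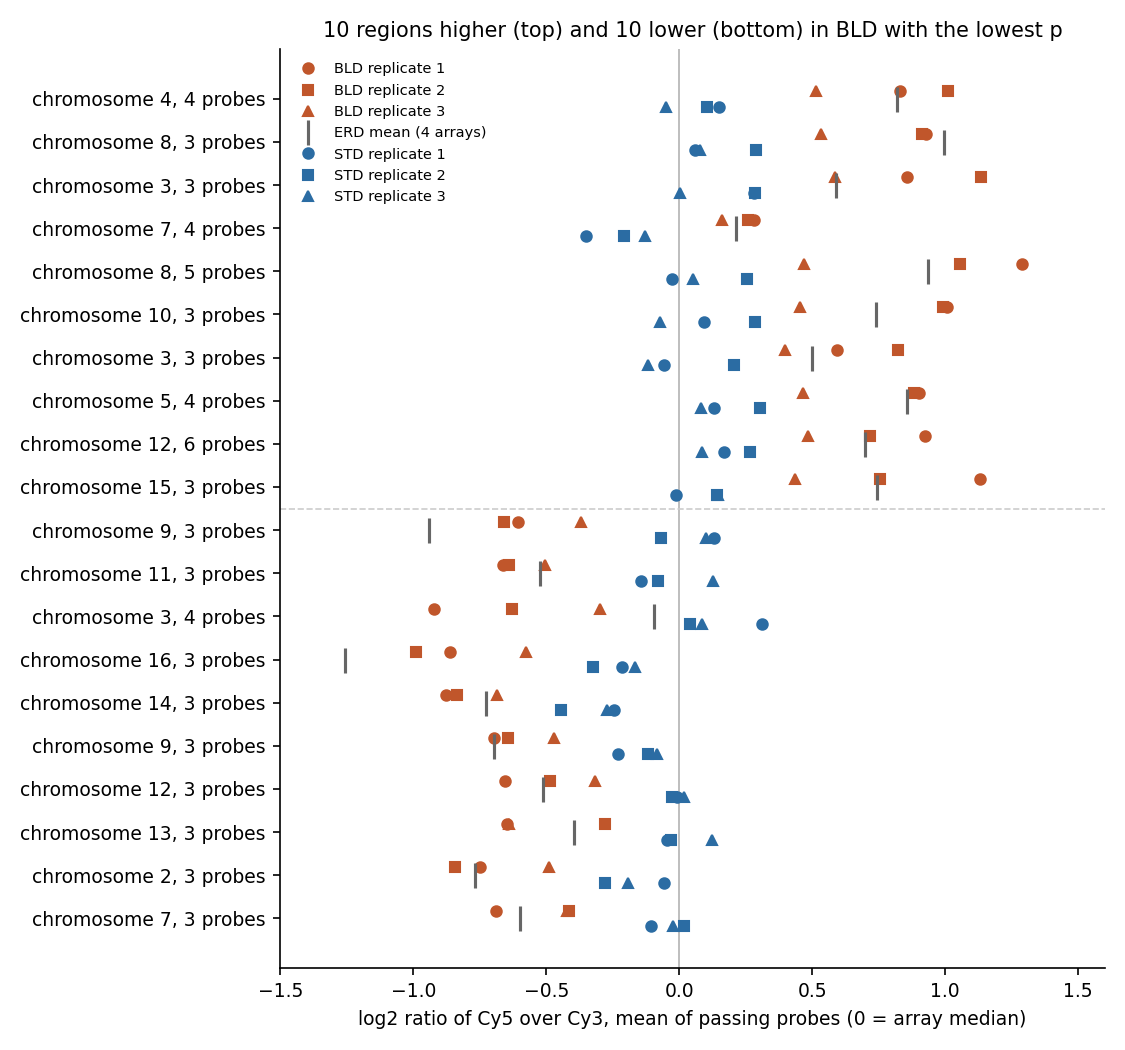
Log2 ratio of the 20 named regions on the horizontal axis, 1 row per region, with BLD above STD within a row, 1 marker shape per replicate and the ERD mean as a vertical bar. BLD replicate 3 is the BLD array nearest to STD in all 10 regions of the upper block.

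The widest difference lay on chromosome 8 from 46108650 to 46109613, where 5 of 7 probes were detected. The log2 ratio was 1.29, 1.06 and 0.47 in BLD, against -0.03, 0.26 and 0.05 in STD. BLD replicate 3 was the lowest of its diet and still above every STD array. The difference was 0.84 ± 0.18 (SE; limma adjusted p = 0.368), and single probes differed by 0.47 to 1.43.

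The region of lowest p lay on chromosome 4 from 34663543 to 34663898 and had all 4 probes detected. It was at 0.83, 1.01 and 0.51 in BLD, against 0.15, 0.10 and -0.05 in STD. All 4 probes were higher in BLD, by 0.41 to 0.96, and the region differed by 0.72 ± 0.13 (SE; limma adjusted p = 0.368). A chromosome 10 region, from 119851590 to 119851938, had 3 detected probes and was at 1.01, 0.99 and 0.45 in BLD against 0.09, 0.29 and -0.07 in STD. Here too the lowest BLD array was replicate 3, and the difference was 0.71 ± 0.16 (SE).

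A longer stretch on chromosome 12, from 92885819 to 92886620, had 6 of 7 probes detected, the most of the 10. Its log2 ratio was 0.92, 0.72 and 0.49 in BLD, against 0.17, 0.27 and 0.09 in STD. Each of the 6 had a higher mean in BLD, by 0.24 to 1.04. The 4 detected probes of a region on chromosome 7, from 139791028 to 139791684, gave 0.28, 0.26 and 0.16 in BLD and -0.35, -0.21 and -0.13 in STD. This was the region with the smallest difference of the 10, at 0.46 ± 0.10 (SE), and its diets lay on opposite sides of the array median. The other 5 regions, on chromosomes 3, 3, 5, 8 and 15, differed by 0.58 to 0.68.

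Among the regions lower in BLD, the widest difference lay on chromosome 3 from 14610945 to 14611794. Its 4 detected probes, of 8, had a mean log2 ratio of -0.92, -0.63 and -0.30 in BLD, against 0.31, 0.04 and 0.09 in STD. The BLD arrays were spread widely but stayed below every STD array, and the difference was -0.76 ± 0.15 (SE; limma adjusted p = 0.368). With all 4 ERD arrays this was the only one of the 20 regions where ERD lay nearer to STD than to BLD, at -0.09 ± 0.22 (SD, n = 4).

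On chromosome 11 from 83112191 to 83112601, 3 of 4 probes gave -0.66, -0.64 and -0.51 in BLD and -0.15, -0.08 and 0.13 in STD. The arrays of BLD lay close together, and the difference was -0.57 ± 0.11 (SE). On chromosome 16 from 56029231 to 56030316, 3 detected probes of 8 gave -0.86, -0.99 and -0.58 in BLD and -0.21, -0.32 and -0.17 in STD. ERD was lower still there, at -1.25 ± 0.35 (SD, n = 4).

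On chromosome 9 from 123760507 to 123761334, 3 of 5 probes were detected. The region was at -0.61, -0.66 and -0.37 in BLD, against 0.13, -0.07 and 0.10 in STD. The diet means of the 3 probes differed by -0.64 to -0.56, a narrow range among these regions. Single arrays varied more from probe to probe: STD replicate 1 was at 1.13, -0.19 and -0.54. On chromosome 12 from 77356011 to 77356553, 3 probes gave -0.66, -0.48 and -0.32 in BLD and -0.01, -0.03 and 0.02 in STD, so that STD lay at the array median with a spread of 0.02 (SD, n = 3). The other 5 regions, on chromosomes 2, 7, 9, 13 and 14, differed by -0.54 to -0.46.

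**Figure D4:**
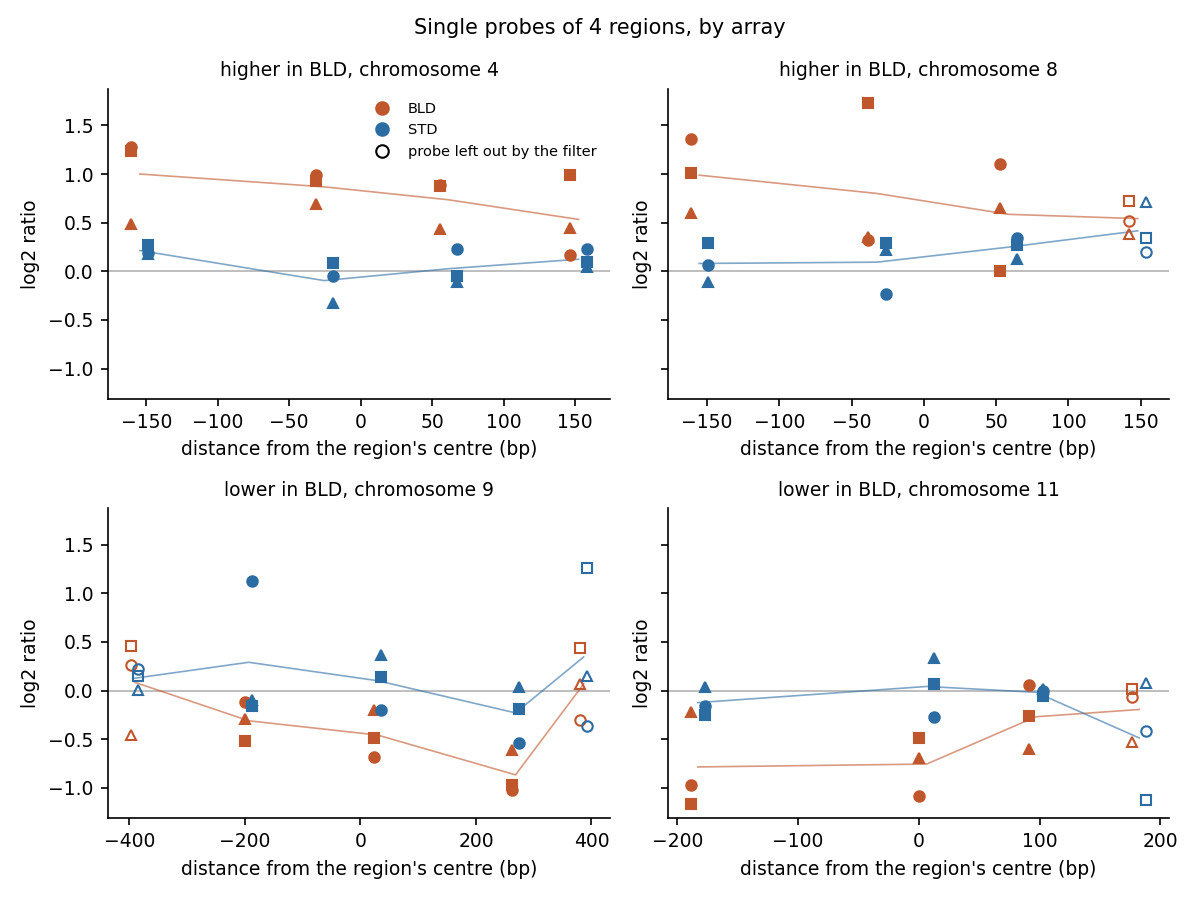
Log2 ratio of single probes against the distance from the centre of the region in bp, for the 2 regions of lowest p in each direction. Markers are single arrays, lines join the means of each diet, and open markers are probes left out by the filter. The 4 probes on chromosome 4 were each higher in BLD, while the open probe on chromosome 11 was higher in BLD, against the detected probes beside it.

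The probes that the filter left out of these regions did not all follow. Of the 8 higher regions that held such probes, their mean difference was also above 0 in 8. Of the 10 lower regions with such probes, it was below 0 in 3, with values from -0.33 to 0.36. Left-out probes of all clusters were higher in BLD as a whole, with array medians of 0.066 on average against -0.056 in STD. The counts cannot be told apart from that shift. Detected probes were of 1 direction in 9 of the 10 higher and in all 10 lower regions. The choice by p favours this, because the same probes form the region means, and the share over all regions was not counted. ERD lay nearer to BLD than to STD in all 10 higher and in 9 of the 10 lower regions. Without ERD replicate 2, left out after its values were seen, this held for 7 of the 10 higher and 9 of the 10 lower ones. ERD arrays entered neither the filter nor the fit, but over all regions they also correlated more with BLD. The mean r was 0.696 between ERD and BLD arrays and 0.537 between ERD and STD arrays. The share of all regions with ERD nearer to BLD was not counted.

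Tested regions within 10 kb of the named ones were few and went both ways. Of the 10 higher regions, 2 had another tested region within 10 kb, and 0 of these neighbours were higher in BLD. The one 1586 bp from the chromosome 3 region that starts at 148480374 differed by -0.07, and the one 1479 bp from the chromosome 7 region that starts at 139791028 by -0.13. Of the 10 lower regions, 3 had such a neighbour, and 2 of the neighbours were lower in BLD. They lay 3452 bp from the chromosome 11 region, with a difference of -0.51, and 7180 bp from the chromosome 16 region, with a difference of -0.31. The neighbour 7204 bp from the chromosome 7 region that starts at 87515457 differed by 0.16. Beyond 10 kb, the chromosome 8 region of widest difference had a neighbour at 12559 bp that was higher in BLD by 0.76. These counts are too small to be told from the share over all regions, of which 39.2% were higher in BLD.

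The channels contributed differently to the higher and the lower regions. With each channel centred by itself, the lower regions had less immunoprecipitated DNA in BLD: the Cy5 difference was below 0 in all 10, with a median of -0.43, and larger than the Cy3 difference in 9. Of the higher regions 8 of 10 had less input signal in BLD: the Cy3 difference had a median of -0.38 and was larger than the Cy5 difference in 7 of 10, while the median Cy5 difference was 0.23. On chromosome 4 the Cy5 difference was 0.03 and the Cy3 difference -0.72. On chromosome 15 from 80202522 to 80203152 Cy5 was also lower in BLD, by -0.36, and the higher ratio came with a Cy3 difference of -1.07. As a set the higher regions were also dim, with a median rank in the lowest 2.25% of regions by Cy3 signal, against 24.5% for the lower ones. This did not hold for each: centred Cy3 was above the array median in the higher region on chromosome 7 (0.40) and in that on chromosome 15 (0.20). The part of the dim input signal in these differences was not tested.

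Over all regions the direction moved with the input signal as well. In the 2005 regions of lowest Cy3 signal 51.7% were higher in BLD and the median region differed by 0.0060, with 180 higher and 126 lower at an unadjusted p under 0.05. In the 2005 of highest Cy3 signal 29.4% were higher and the median region differed by -0.09, with 32 higher and 248 lower. The shift toward lower values in BLD was thus widest in the bright regions. The shift was present on the shared slide too, where the median difference of the brightest regions was -0.09.

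Cluster size changed the share of regions at an unadjusted p under 0.05 but not the direction. With 3 detected probes, 182 of 3127 regions were higher and 330 lower. With 6 to 10 probes, 36 of 2468 were higher and 188 lower. Among the 306 regions of over 10 detected probes, 6 were higher and 18 lower. Regions with a lower value in BLD outnumbered the others in all 4 size classes and on all 20 chromosomes. The median difference ran from -0.07 on chromosome 3 to -0.017 on chromosome 7.

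All 3 BLD arrays were below their median in 4406 of 10025 regions, and all 3 STD arrays in 2735. The counts above the median were 2311 in BLD and 2333 in STD. Of all regions, 2077 lay below the median on all 6 arrays and 1349 above it on all 6. In 189 regions all BLD arrays lay below and all STD arrays above, and in 55 all BLD arrays lay above and all STD arrays below. The spread between the arrays of a diet had a median SD of 0.13 in BLD and 0.12 in STD (n = 3 each).

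These directions depended on which probes were used and on where the arrays were centred. Probes in clusters that passed the filter had array medians of -0.05 to -0.0083 in BLD, against 0.014 to 0.03 in STD. Probes that failed it had medians of 0.0099 to 0.13 in BLD, against -0.07 to -0.04 in STD. The diets did not overlap among the kept probes (exact permutation p = 0.1, the smallest possible, and 0.4 adjusted). The dropped probes are no separate result, because centring on all probes puts them on the other side of 0.

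With all probes of the 13835 clusters, the split turned round. There 1341 regions were higher and 481 lower in BLD at an unadjusted p under 0.05 (73.6% higher), against 375 and 950 with detected probes (28.3% higher). With detected probes and each array centred on their median, 674 were higher and 481 lower (58.4% higher), and with loess 596 and 564 (51.4% higher). Quantile normalization gave 249 higher and 1237 lower. The median of all regions moved from -0.05 to 0.0091 when arrays were centred on detected probes and to 0.0005 with loess. All 20 named regions kept their direction under both. Centring on detected probes moves every region by the same small amount, so it could not turn differences as wide as theirs.

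**Figure D5:**
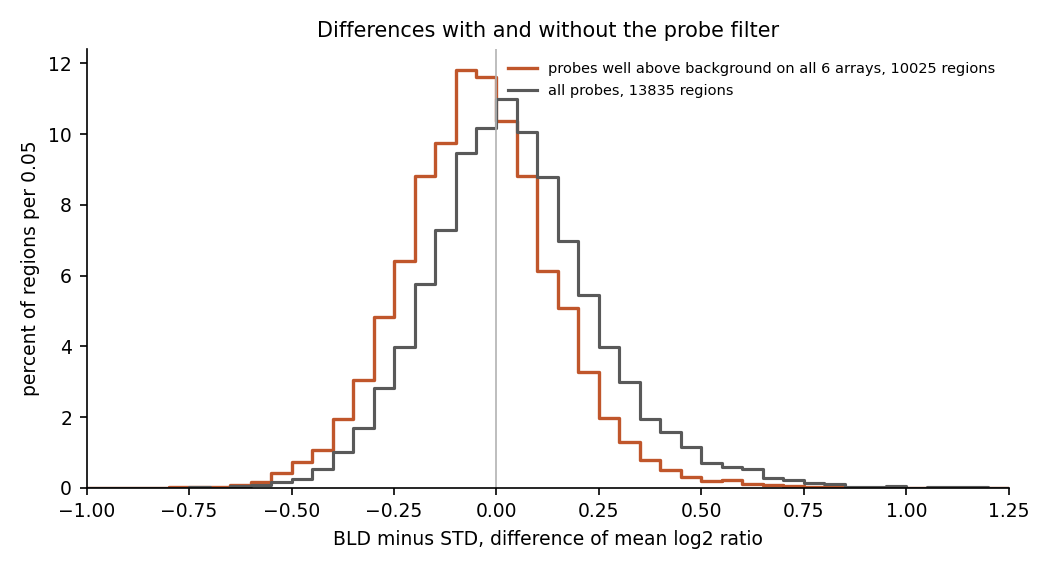
Distribution of BLD minus STD differences in log2 ratio over 10025 regions of detected probes and over 13835 regions of all probes, as the percent of regions per 0.05 on the log2 scale. Both distributions reach to either side of 0 and overlap widely. The median is -0.05 with detected probes and 0.030 with all probes.

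Using all probes, 2 regions passed the adjusted threshold, both higher in BLD. The first, on chromosome 17 from 12464504 to 12464912, had 4 probes at 1.55, 1.26 and 1.02 in BLD, against -0.04, 0.04 and -0.14 in STD (limma adjusted p = 0.0374). None of the 4 probes was well above background in both colours on all 6 arrays. On chromosome 14 from 55203336 to 55203649, 4 probes gave 0.95, 0.95 and 0.60 in BLD and -0.32, -0.13 and -0.29 in STD, a difference of 1.08 (limma adjusted p = 0.0467). Its 2 detected probes alone differed by 0.49. Neither region could be tested with detected probes.

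Normexp had the strongest effect on the named regions. This method was run on the raw median signals, not on the processed ones. It subtracts the local background, fits a model of the background that remains, and here added an offset of 50. With it, 0.170% of regions had an unadjusted p under 0.05. The direction turned in 13 of the 20, among them those on chromosomes 4, 11 and 16. The parts of the raw signals, of the background model and of the offset in this were not tested. The slide could be set apart from the diet only through the 1 pair of arrays that shared a slide. In that pair the 10 higher regions differed by 0.31 to 0.51 and the 10 lower ones by -0.61 to -0.24, but the same 2 arrays also entered the fit by which these regions were picked.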

How the data were processed

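Per the labels, hemibrain DNA of each sample was immunoprecipitated (Cy5) and hybridised with its input (Cy3) on an Agilent CpG island array. Intensity values were deposited by the authors as processed signals, background-subtracted and scaled linearly between dyes per the file headers (Agilent Feature Extraction 10.7.3.1; the submitters' processing notes list 9.0). The log10 ratio in the deposited series table equals that of the scanner files within 0.00498. Outlier-flagged spots were dropped, saturated spots kept, and the log2 ratio of the deposited intensity values centred on each array's median. Means of the detected probes of a region entered limma 3.58.1 (R 4.3.3) over the 6 arrays, with Benjamini-Hochberg adjustment. The fit was tested on simulated data with independent noise for each region and array. That simulation held no slide effect and no difference in spread between arrays, so it does not cover these. Regions were named by the rule given in the report. Array measures were compared by exact two-sided permutation. The number of arrays limits the precision. Alternatives covered filters, normalization, region definition, slide, position, weights and single arrays. Members, lists and tests were chosen with earlier results of these data known. The gene and cell type marker lists were not tested: probes carry no gene name, and the gene table used here is on another build, GRCm38.p6. Correction for probe base composition was not run.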

Additional observations from a re-analysis of the deposited data

Results flagged for a closer look

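In 2 of the named regions 1 ERD array stood far from the other 3. On chromosome 4 from 34663543 to 34663898, ERD replicate 2 had a log2 ratio of 1.82 and the others lay between 0.36 and 0.56. On chromosome 12 from 92885819 to 92886620, the same array was at 1.76 and the others between 0.23 and 0.45. The gap to the nearest array was 0.865 and 0.857 of the whole range, above Dixon's 95% limit for 4 values. In all, 23 sets of 4 ERD values were checked, and chance alone marks about 1 in 20. The ERD means of these regions rest on that array, while no BLD or STD value does. Groups of 3 arrays were not checked.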

How the results depend on the processing

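The count of regions past the adjusted threshold was 0, and also 0 under all alternatives but 3: it was 2 with no filter, 714 with array weights and between 0 and 234 when 1 array was left out. Regions at an unadjusted p under 0.05 made up 13.2%, but 0.170% with normexp, 5.00% with the slide as a fixed block, 7.82% with the array position as a block, 30.2% with weights and 4.49% to 24.1% without 1 array. The percent of these that were higher in BLD (28.3%) was 73.6% with no filter, 58.8% with normexp, 51.4% with loess, 58.4% when centred on detected probes, 16.8% with quantile normalization and 26.6% to 39.8% without 1 array. In the first 4 of these settings the median difference over regions turned to 0.030, 0.095, 0.00055 and 0.0091, and the percent of regions higher in BLD to 56.7%, 80.2%, 50.1% and 52.1%. The difference in spread turned to -0.25 with normexp and -0.069 with the slide block. That in the regions lowest in ERD turned to 0.17 and 0.021 in these settings. The cause was not tested. The difference in the regions highest in ERD (0.19) kept its sign in all of its alternatives but was 0.031 with normexp, 0.016 with the slide block and 0.095 with quantile normalization. Of the 20 named regions, normexp turned 13, to 0.084, 0.086, 0.153, 0.313, 0.093, 0.071, 0.080 and 0.268 among the lower and -0.0045, -0.030, -0.058, -0.012 and -0.037 among the higher ones. Every other setting kept the sign of all named regions it could form, which were 9 with the filter on all 10 arrays and 2 with 5 or more detected probes. For the fits without 1 array this was fixed by the rule that chose the regions. With all 10 arrays in the fit the differences were those of the main fit, so their sign could not turn there either. Past the threshold were 17 of the 20 without BLD replicate 3 and 19 with weights, against 234 and 714 of all 10025 regions. The choice of the 20 by p on the same arrays favours this. No paired analysis was possible because the labels give no replicate numbers, and 1 pair of arrays alone shared a slide, which the slide blocks use. Correction for the GC content of probes was not run because no probe sequences were used here. Dim spots limit depth: 30475 of the clustered probes were not detected on all 6 arrays.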

Other observations

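The islands with the highest and lowest ratios on these arrays were chosen here after their values were seen. On chromosome 13 from 34838589 to 34839432, 3 detected probes had log2 ratios of 1.53, 1.15 and 0.83 in BLD, against 0.64, 1.14 and 0.43 in STD. On chromosome 9 from 122075655 to 122076150 they were 1.09, 0.80 and 0.87 in BLD, against 0.97, 2.22 and 1.40 in STD, so that the diets overlapped in both. The lowest level was that on chromosome 19 from 17468432 to 17468915, at -1.11, -1.46 and -0.68 in BLD and -0.88, -1.05 and -0.48 in STD.

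Long clusters rest on more probes than the named regions do. Among those of over 10 detected probes, the one lower in BLD with the smallest p was on chromosome 1 from 88421464 to 88425252, where 14 of 30 probes were detected. It was at -0.50, -0.33 and -0.36 in BLD, against -0.15, -0.04 and -0.07 in STD. The difference was -0.31 ± 0.10 (SE), with a limma adjusted p of 0.368, and the arrays of the diets did not overlap. On chromosome 15 from 96471416 to 96473590, 12 of 19 probes gave -0.02, -0.03 and -0.12 in BLD, against -0.44, -0.34 and -0.24 in STD. On chromosome 4 from 41444417 to 41446514, 13 of 18 gave 1.20, 0.63 and 0.41 in BLD and 0.07, 0.40 and 0.10 in STD.

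In these male mice, islands of the X chromosome had the highest level of all chromosomes, with medians over 252 regions of 0.03 in BLD and 0.08 in STD. Their share at an unadjusted p under 0.05 was the lowest of the 20 chromosomes, at 8.33%, with 7 higher and 14 lower in BLD. This difference between chromosomes was not tested. The X region with the lowest p, from 7225643 to 7226035, was at -0.33, -0.27 and -0.08 in BLD, against 0.14, 0.07 and 0.11 in STD (limma adjusted p = 0.368).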
